A study of Mus musculus with 6 samples.

Results

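The genes of the contractile apparatus of vascular smooth muscle differed by small amounts between whole thoracic aortas with Ndst deleted by a smooth muscle Cre and those of controls. The brightest probes of smooth muscle actin, myosin heavy chain and myosin light chain kinase lay within 0.1 of the control level on the log2 scale, while single probes of Cald1, Tpm4, Acta2, Myocd and Srf were higher and the probe of Lmod1 was lower. The apparatus was taken as 35 genes, chosen by symbol from the array's annotation, that encode the actin and myosin filaments, the proteins that regulate or anchor them, and the nuclear factors that act on their genes. Of the 35, 33 had at least 1 probe, 82 probes of the 45281 in the table, which name 19057 genes. The other members, Cnn3 and Speg, were not analysed here.

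The tissue was thoracic aorta of male C57Bl/6 mice aged 3 to 4 months, with 1 bead array per sample. The NDST samples (n = 3) carried SM22αCre+Ndst-/-, and the WT samples (n = 3) were SM22αCre-Ndstwt/wt. The Cre was driven by the promoter of SM22α, the protein that the member gene Tagln encodes, so it acts in smooth muscle and in any other cell that uses this promoter. The controls carried no Cre, so effects of Cre and of Ndst loss cannot be told apart. Whether each sample was a different mouse is not in the labels, and the p-values therefore measure only the spread between these samples. Ndst1 was not analysed here, and the genotypes were not checked against a level of the deleted gene.

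Smooth muscle contracts when calcium and calmodulin activate myosin light chain kinase, which phosphorylates the regulatory light chain and lets myosin pull on actin. Myosin phosphatase reverses the step, and thin filament proteins such as caldesmon and calponin restrain the motor. Transcription of most of these genes depends on serum response factor, which binds CArG boxes, and on its cofactor myocardin. Vascular smooth muscle cells that leave the contractile state lower the genes particular to smooth muscle, such as Acta2 and Myh11, which are a common reading of their differentiation. Other members, such as Myh9, Myh10, Tagln2 and Cnn2, are also made by non-muscle cells, so the set as a whole is not such a reading. Ndst enzymes sulfate the chains of heparan sulfate, which bind growth factors at the cell surface.

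Between 18063 and 18619 probes were detected on the NDST arrays, against 17549 to 18131 on the WT arrays. A probe was kept when its detection p-value was under 0.05 on at least 3 of the 6 arrays, which left 17954 probes. Pairs of arrays of 1 genotype correlated at 0.991 to 0.993 over kept probes, and pairs of different genotypes at 0.982 to 0.984. No array stood apart from its own genotype. All levels below are normalized log2 intensities, which rank arrays for 1 probe and do not compare probes, and each difference is NDST minus WT with limma's standard error. A probe was called when limma's p, adjusted by Benjamini-Hochberg over all kept probes, was under 0.05.

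Of the 82 member probes, 57 were kept and represented 30 genes. The remaining 25 probes included 18 that no array detected. Mrtfa, Mrtfb and Ppp1r12b, which encode a pair of myocardin-related cofactors and a myosin phosphatase subunit, had no kept probe, so no level is given for them. The defining smooth muscle genes Acta2, Myh11, Mylk and Tagln were detected on all 6 arrays.

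Differences within the apparatus were small in every role and ran in both directions. Of the 57 kept member probes, 5 were called higher and 1 lower, 10.5% in all. Over all kept probes, 4.32% were called higher and 3.12% lower, 7.44% in either direction. By genes, 6 of 30 members had at least 1 called probe, beside 9.8% of all 10077 genes with a kept probe. Members had more kept probes per gene than genes in general, 1.90 beside 1.53, which gives a member more chances to have 1 called. When each gene was read from its brightest probe alone, 2 members were higher and 1 lower of 30. Of all genes read in this way, 4.61% were higher and 2.74% lower, 7.35% in either direction.

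The median difference of the 57 member probes was 0.05, beside -0.01 over all kept probes. A positive difference was seen for 37 of the 57, beside 8735 of all 17954 kept probes. In the authors' processed values 26 of the 57 were positive. Of the 57, 24 differed by less than 0.1. A difference of at least 1.5-fold was seen for 3 of the 57, beside 609 of the 17954. The median size of a difference, whatever its sign, was 0.13 for members and 0.15 for all kept probes. The 3 NDST arrays did not overlap the 3 WT arrays at 24 of 57 member probes, 42.1%, beside 32.4% of all kept probes. NDST lay above WT at 16 of the 57 and below at 8 of the 57. Over all kept probes the directions were near equal, with 2892 above (16.1%) and 2923 below (16.3%). The spread was smaller for members, with a median SD within a genotype of 0.10 beside 0.13 over all probes. Because whole tissue was measured, fewer cells of a type and less RNA per cell cannot be told apart in any of these values.

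**Figure D1:**
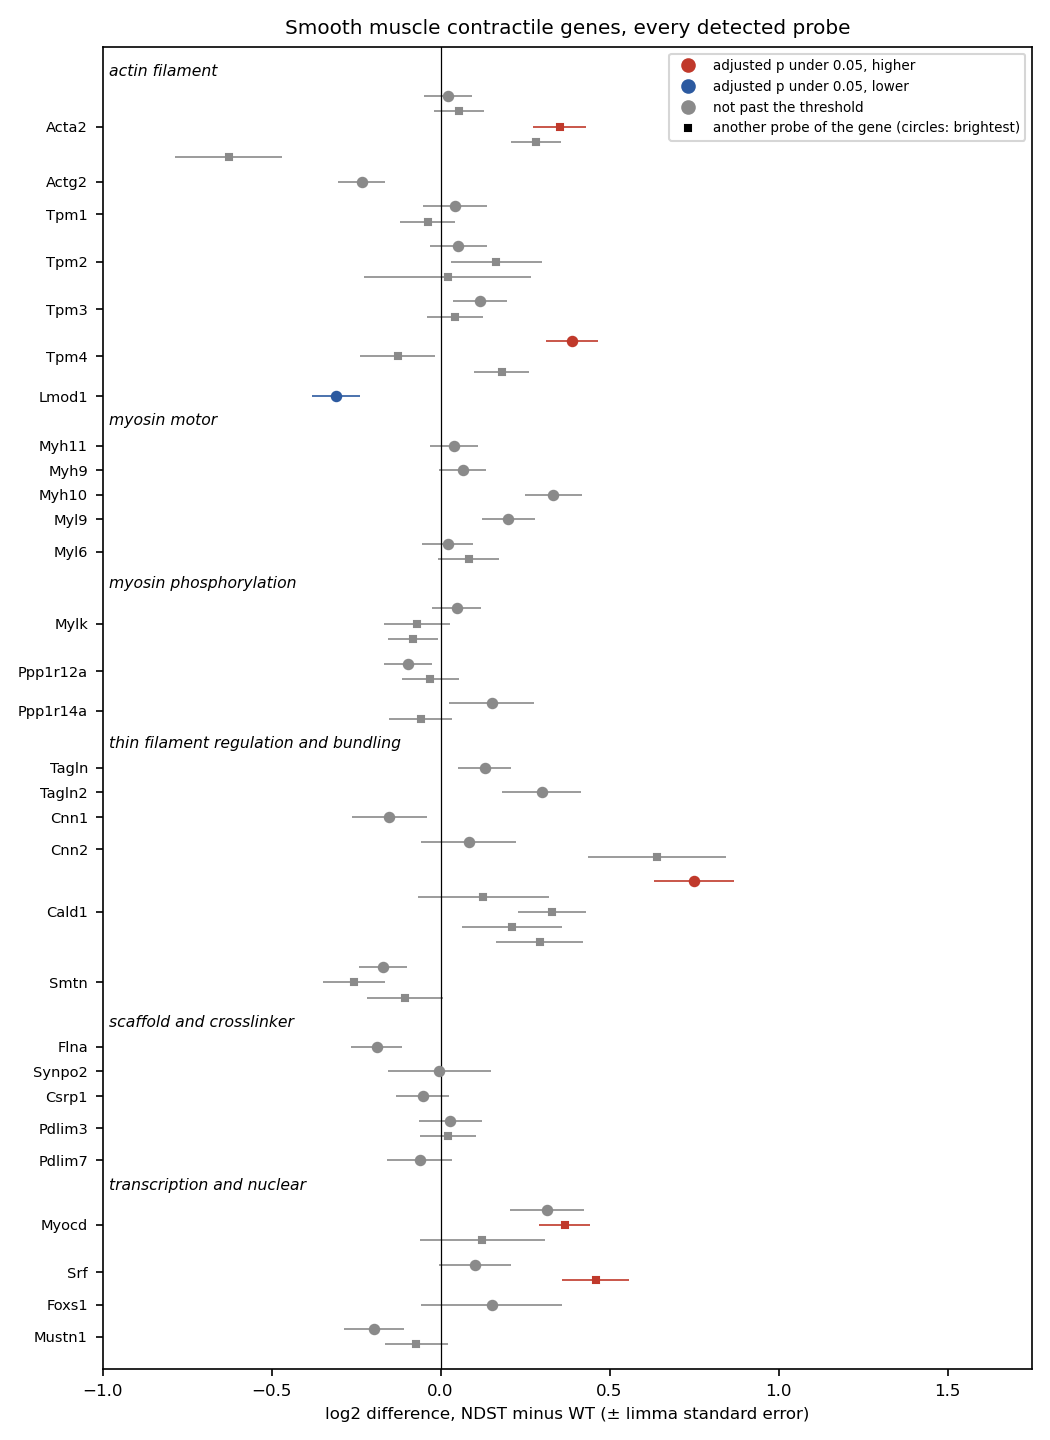
Difference in log2 intensity, NDST minus WT, of each of the 57 kept probes of 30 contractile genes, grouped by role, with limma's standard error as the bar. Red circles or squares mark the 5 probes called higher and blue the 1 called lower, while the brightest probes of Acta2, Myh11 and Mylk lie within 0.1 of 0.

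**Figure D2:**
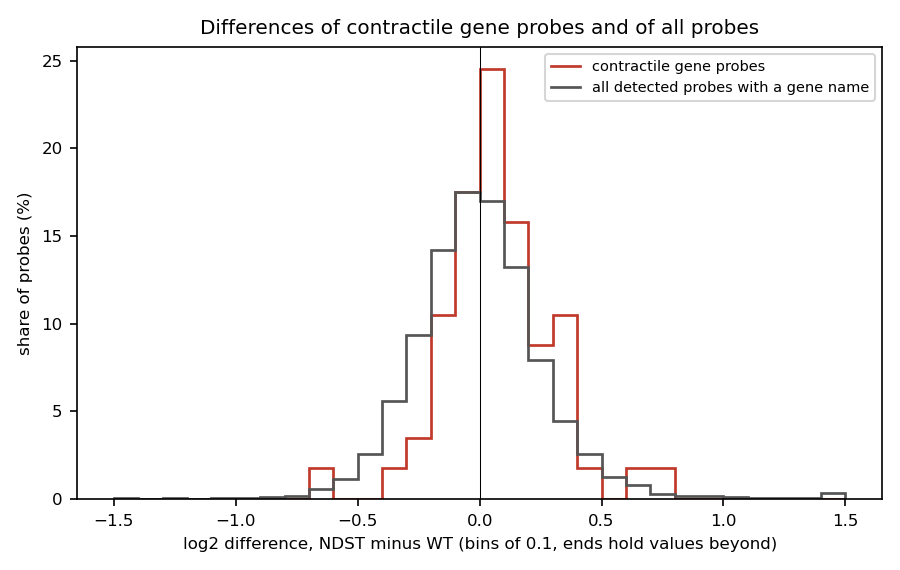
Share of probes, in percent, by difference in log2 intensity, NDST minus WT, in bins of 0.1, for the 57 contractile probes and for all kept probes with a gene name. Both curves centre near 0, and no contractile probe reaches 1 in either direction.

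The nuclear members, Myocd, Srf, Foxs1 and Mustn1, had 8 kept probes with a median difference of 0.14, of which 2 were called higher. Myocd encodes myocardin, the cofactor of serum response factor in smooth and cardiac muscle. Its called probe read 8.15, 8.14 and 8.11 on the NDST arrays, against 7.70, 7.85 and 7.75 on the WT arrays. All 3 NDST arrays were above all 3 WT arrays, with a difference of 0.37 ± 0.08 (limma adjusted p = 0.0343). The brightest Myocd probe did not pass the test, with 8.24, 8.16 and 8.21 in NDST aortas and 8.07, 7.68 and 7.91 in WT aortas. Its difference was 0.31 ± 0.11 (adjusted p = 0.128), and the WT arrays were the more spread. The remaining Myocd probe differed by 0.12 (adjusted p = 0.718).

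Srf encodes serum response factor itself. Its brightest probe read 8.58, 8.61 and 8.80 on the NDST arrays and 8.68, 8.40 and 8.60 on the WT arrays, and the genotypes overlapped. That difference was 0.10 ± 0.11 (adjusted p = 0.593). A second, dim Srf probe was called, with 5.41, 5.29 and 5.14 on the NDST arrays against 4.91, 4.85 and 4.71 on the WT arrays. It was not well above background on any WT array, so its level in NDST aortas was at least 1.24-fold higher (adjusted p = 0.0416). It passed under 2 of 14 other settings, median scaling and no normalization between arrays, and its adjusted p reached 0.159 in the others.

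Foxs1, a forkhead factor of vascular mural cells, differed by 0.15 ± 0.21 (adjusted p = 0.698). Mustn1, a small nuclear protein of the musculoskeletal system, differed by -0.20 (adjusted p = 0.214) and -0.07 (adjusted p = 0.674) on its probes.

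Since serum response factor binds CArG boxes, the RefSeq promoter windows (GRCm38.p6, 250 bases before to 50 after each start) were searched for the CArG box by its letters, CC, any 6 of A or T, then GG. Of the 30 members with a window, 4 held a match, 13.3%, beside 1.81% of the 27025 genes of the table. Windows of Myocd, Tagln, Myh11, Actg2 and Foxs1 were not used here. The matches are shown with 25 bases on each side, 5′ to 3′ on the gene's strand, with the box in capitals, because they are the letters that Srf protein would read in these genes.

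Cnn2, chr10:79988519-79988578, plus strand: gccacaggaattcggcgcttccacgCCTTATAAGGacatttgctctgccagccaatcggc

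Myl6, chr10:128493025-128493084, minus strand: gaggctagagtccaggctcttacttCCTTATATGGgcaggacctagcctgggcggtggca

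Myl9, chr2:156775278-156775337, plus strand: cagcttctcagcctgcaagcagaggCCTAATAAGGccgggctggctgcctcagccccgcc

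Srf, chr17:46556190-46556269, minus strand: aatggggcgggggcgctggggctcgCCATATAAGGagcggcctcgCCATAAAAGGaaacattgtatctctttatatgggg

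The boxes of Cnn2, Myl6 and Myl9 begin 56, 50 and 161 bases before the annotated start, and Srf holds a pair, the farther of which begins 82 bases before it. The 7 kept probes of these 4 genes differed by 0.02 to 0.64, all positive, with a median of 0.10 and 1 called, the dim Srf probe. In the authors' processed values both Myl6 probes were negative, at -0.16 and -0.08, and with median scaling the brighter was at -0.05. The 43 kept probes of the 21 members that had a kept probe and a window but no match had a median of 0.02, with 24 positive and 4 called. The MCAT motif CATTCC, on either strand, was present in windows of 14 of 30 members, 46.7%, beside 16.6% of all genes, and it did not overlap a CArG box, since none of the 4 windows held both. The windows of Acta2, Cnn1, Lmod1 and Cald1 held no match to this strict pattern. Sites 1 base off the pattern were not counted in any window. The Acta2 window holds ccctatatgg and ccttgtttgg, each 1 base off, so no match does not mean that a gene lacks a CArG box. These are matches of letters only.

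The actin filament genes had 17 kept probes with a median difference of 0.04, 2 called higher and 1 lower. Acta2 encodes smooth muscle α-actin, the main actin of the vessel wall. Its brightest probe read 15.13, 15.21 and 15.13 on the NDST arrays and 15.16, 15.10 and 15.15 on the WT arrays. The genotypes overlapped there, with a difference of 0.02 ± 0.07 (95% interval -0.14 to 0.19, adjusted p = 0.875). In the authors' processed values this probe was lower in NDST aortas, at -0.165 (adjusted p = 0.0448). The second brightest differed by 0.06 (adjusted p = 0.680).

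The remaining Acta2 probes did not follow these, and not only the dim one. The called probe lay near the second brightest in level, with means of 13.34 and 13.41 over the 6 arrays. It read 13.59, 13.42 and 13.55 on the NDST arrays against 13.17, 13.19 and 13.14 on the WT arrays. It was higher on every NDST array, by 0.35 ± 0.08 (adjusted p = 0.0427). Another bright probe differed by 0.28, with every NDST array above every WT array, and did not pass (adjusted p = 0.0651). The dimmest kept probe went the other way, with 5.78, 5.90 and 5.69 in NDST aortas against 6.54, 6.06 and 6.64 in WT aortas. That difference was -0.63 ± 0.16 and narrowly missed the threshold (adjusted p = 0.0590), which it passed without WT replicate 2 (adjusted p = 0.0204). Probe sequences were not used here, so whether an Acta2 probe also binds the RNA of the near-identical cardiac actin was not tested.

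Tpm4 encodes a tropomyosin, a coiled coil that lies along actin. Its brightest probe read 11.33, 11.39 and 11.43 on the NDST arrays, against 10.94, 11.08 and 10.95 on the WT arrays. Every NDST array was above every WT array, by 0.39 ± 0.08 (adjusted p = 0.0328). The other Tpm4 probes differed by -0.13 (adjusted p = 0.516) and 0.18 (adjusted p = 0.212), so its probes disagreed in sign. The brightest probes of Tpm1, Tpm2 and Tpm3 differed by 0.04, 0.05 and 0.12, and none of their 7 probes was called.

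Lmod1 encodes leiomodin, which nucleates actin filaments in smooth muscle, and it was the only member called lower. Its single probe read 8.20, 8.23 and 8.13 on the NDST arrays, against 8.51, 8.51 and 8.46 on the WT arrays. The genotypes did not overlap, and the difference was -0.31 ± 0.07 (adjusted p = 0.0472). It was -0.20 (adjusted p = 0.207) with median scaling in place of quantile normalization. Actg2, the γ-actin of enteric smooth muscle, was also below WT on every NDST array, by a value of -0.23 ± 0.07 that did not pass (adjusted p = 0.0906).

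No probe of the myosin motor genes was called by limma, and 2 had an unadjusted p under 0.05, as did 25.9% of all kept probes. All 6 kept motor probes were positive, with a median of 0.07, but 5 were positive with median scaling, 5 when arrays were left unnormalized, and 2 in the authors' processed values. Myh11, the smooth muscle myosin heavy chain and a defining gene of the lineage, averaged 11.87 ± 0.05 in NDST aortas and 11.83 ± 0.04 in WT aortas (SD, n = 3 each). Its difference was 0.04 ± 0.07 (95% interval -0.13 to 0.21, adjusted p = 0.772).

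Myh10, a non-muscle myosin heavy chain, had the widest gap of the motor genes. It read 9.41, 9.37 and 9.19 on the NDST arrays, against 9.03, 8.995 and 8.95 on the WT arrays, with no overlap. Its difference of 0.33 ± 0.09 did not pass (adjusted p = 0.0610), although it passed under 7 of 15 other settings. Myh9, the other non-muscle heavy chain measured, differed by 0.07 (adjusted p = 0.604). The regulatory light chain Myl9 differed by 0.20 (adjusted p = 0.164), and the essential light chain Myl6 by 0.02 and 0.08 on its 2 probes.

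Of the 7 kept probes of genes that set myosin phosphorylation, limma called 0 and 0 had an unadjusted p under 0.05, while 5 were negative. Their median of -0.06 became 0.01 under median scaling and 0.06 when arrays were left unnormalized. The median of all kept probes moved too, from -0.01 to 0.08 and 0.13. The sign of this role thus depended on the scaling, while its median stayed below that of all kept probes. Mylk, the myosin light chain kinase, averaged 12.26 ± 0.03 in NDST aortas and 12.21 ± 0.06 in WT aortas on its brightest probe (SD, n = 3 each). Its 3 probes differed by 0.05, -0.07 and -0.08 (adjusted p 0.540 to 0.725). Ppp1r12a, the subunit that targets myosin phosphatase, differed by -0.10 and -0.03. Ppp1r14a, an inhibitor of that phosphatase, differed by 0.15 and -0.06 on its probes, which overlapped between genotypes.

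Thin filament regulators had 13 kept probes with a median of 0.13 and 1 called higher. Cald1 encodes caldesmon, which binds actin and tropomyosin and inhibits the motor. Its brightest probe read 7.21, 6.97 and 6.95 on the NDST arrays, against 6.49, 6.19 and 6.20 on the WT arrays. NDST was above WT on every array, by 0.75 ± 0.12 (adjusted p = 0.0170), the highest difference of all 57 member probes. The other 4 Cald1 probes were also positive, at 0.13, 0.33, 0.21 and 0.29, and none passed (adjusted p 0.0929 to 0.726). The called probe was dim, with uncorrected intensities of 264.5, 244.8 and 249.3 in NDST aortas and 191.0, 181.0 and 182.4 in WT aortas. Its difference ran from 0.356 to 0.925 under the other settings. The mean of the gene's probes differed by 0.34 and did not pass (limma adjusted p = 0.0735).

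Tagln encodes transgelin, the SM22α protein whose promoter drove the Cre. It read 9.51, 9.38 and 9.36 on the NDST arrays and 9.27, 9.34 and 9.24 on the WT arrays. Each NDST array was above each WT array, but the difference of 0.13 ± 0.08 did not pass (95% interval -0.06 to 0.32, adjusted p = 0.348). Its relative Tagln2, which other cell types also express, differed by 0.30 ± 0.12 (adjusted p = 0.162).

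Cnn1, the smooth muscle calponin, differed by -0.15 ± 0.11 (adjusted p = 0.444). Cnn2, a calponin of non-muscle cells too, differed by 0.08 on its brightest probe. Its second probe was not well above background on any WT array and was at least 1.40-fold higher in NDST aortas, without passing the test (adjusted p = 0.106). Smtn encodes smoothelin, a marker of fully contractile cells, and its 3 probes differed by -0.17, -0.26 and -0.10 (adjusted p 0.139 to 0.606). The third of them was positive, at 0.01, with median scaling, where the median of all kept probes was 0.08.

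Scaffold and crosslinking genes had 6 kept probes, none called by limma and 1 with an unadjusted p under 0.05. Their median was -0.03, and 0.05 without normalization between arrays, where that of all kept probes was 0.13. Flna, which crosslinks actin, was furthest from 0, at -0.19 ± 0.08 (adjusted p = 0.173). The LIM proteins Csrp1, Pdlim3 and Pdlim7 differed by -0.05, 0.03 and -0.06 on their brightest probes. The actin-associated Synpo2 differed by 0.00 to 2 decimals, but its probe was detected on only 1 NDST and 2 WT arrays. At that level, near background, a difference could not be read. Over the whole set, 13 of 30 members had a brightest probe within 0.1 of WT, Synpo2 among them.

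**Figure D3:**
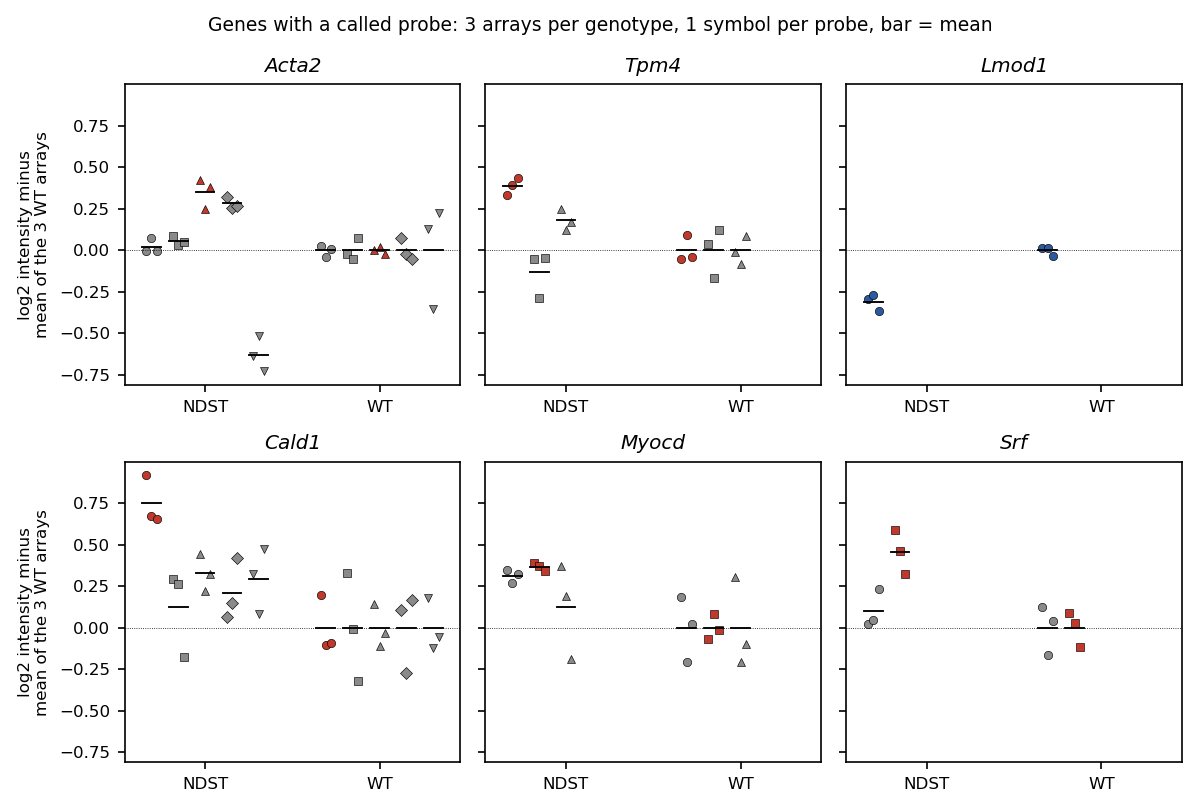
Log2 intensity minus the mean of the 3 WT arrays for each kept probe of the 6 members with a called probe, with 1 symbol per array, a bar at the mean, NDST on the left and WT on the right. Red and blue mark the called probes, and grey probes of Acta2, Tpm4, Myocd and Srf lie nearer to WT than the called ones or, for 1 probe each of Acta2 and Tpm4, below it.

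The 6 called members rested on few arrays and, apart from Lmod1, on some of their probes. Of the 5 with several kept probes none had every probe called, and 3 had all kept probes of 1 sign. When any 1 of the 6 arrays was left out, the called probes of Acta2, Tpm4, Lmod1, Myocd and Srf no longer passed. Their adjusted p then ran 0.0675 to 0.121 for Acta2, 0.0604 to 0.0955 for Tpm4, 0.0977 to 0.125 for Lmod1, 0.0627 to 0.101 for Myocd and 0.0639 to 0.115 for Srf. Cald1 passed without WT replicate 1 (adjusted p = 0.0211) and missed without any other array (highest 0.0583). All called probes kept their sign in each of these fits.

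Related genes in 3 lists outside the 35 members were read from the same fit. Other cytoskeletal genes of smooth muscle had 30 genes with a kept probe, of which 3 were higher and none lower by their brightest probe, with a median of 0.18 and 24 positive. Fhl2, a LIM cofactor that is also abundant in heart, moved most. It averaged 7.61 in NDST aortas and 5.71 in WT aortas, a difference of 1.90 ± 0.14 (adjusted p = 0.000714). Pdlim1, a LIM protein of stress fibres, differed by 0.37 (adjusted p = 0.0399). Flnc, a filamin of striated muscle, differed by 0.32 (adjusted p = 0.0468). The small heat shock protein Hspb6 differed by 0.25 (adjusted p = 0.0728), and the LIM protein Fhl1 by 0.23 (adjusted p = 0.109).

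Actb, cytoplasmic β-actin, gave contrary readings. Of its 5 kept probes, 1 was called higher, at 0.41 (adjusted p = 0.0282), and 2 lower, at -1.18 (adjusted p = 0.00392) and -1.21 (adjusted p = 0.000311), while the brightest differed by -0.09 (adjusted p = 0.480). Lpp, a focal adhesion protein, was called on 1 of 4 probes, at 0.41 (adjusted p = 0.0247), with its brightest at 0.13. No direction is given for either gene.

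Calcium sensitization genes had 21 genes with a kept probe, 1 called higher and none lower, with a median of 0.04 and 12 positive. The called gene is not reported here. Camk2d, a calmodulin-dependent kinase and not that gene, was called on 1 of 6 probes, not its brightest, at least 1.21-fold higher (adjusted p = 0.0423). Prkcd, a protein kinase C, differed by 0.41 (adjusted p = 0.0611), and Ppp1r14b, a phosphatase inhibitor, by -0.42 (adjusted p = 0.0608). The bright genes Ppp1ca, a phosphatase catalytic subunit, and Ilk, a focal adhesion kinase, differed by -0.04 and 0.04.

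Other regulators of smooth muscle genes had 17 genes with a kept probe, 4 called higher and none lower, with a median of 0.22 and 13 positive. Gata6, a zinc finger factor of vascular smooth muscle and heart, averaged 9.07 in NDST aortas and 8.63 in WT aortas, a difference of 0.44 (adjusted p = 0.0255). Mef2c, a MADS-box partner of myocardin, differed by 0.42 (adjusted p = 0.0259), with 0.64 and 0.12 on its other probes. The homeobox genes Prrx1 and Meox2 differed by 0.47 (adjusted p = 0.0265) and 0.58 (adjusted p = 0.0287). Elk4, an ETS factor that binds with serum response factor, differed by 0.20 (adjusted p = 0.249). Hey2, a Notch target, passed on its second probe, at 0.55 (adjusted p = 0.0396), and not on its brightest, at 0.22 (adjusted p = 0.182).

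The brightest Fhl2 probe and both lower Actb probes passed under all 15 other settings, with each array left out included. A second called Fhl2 probe passed under only 3 of 14 settings, and its adjusted p reached 0.138. The other calls named above from these lists passed under 7 to 11 settings, and their adjusted p reached 0.0574 to 0.126 where they failed.

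**Figure D4:**
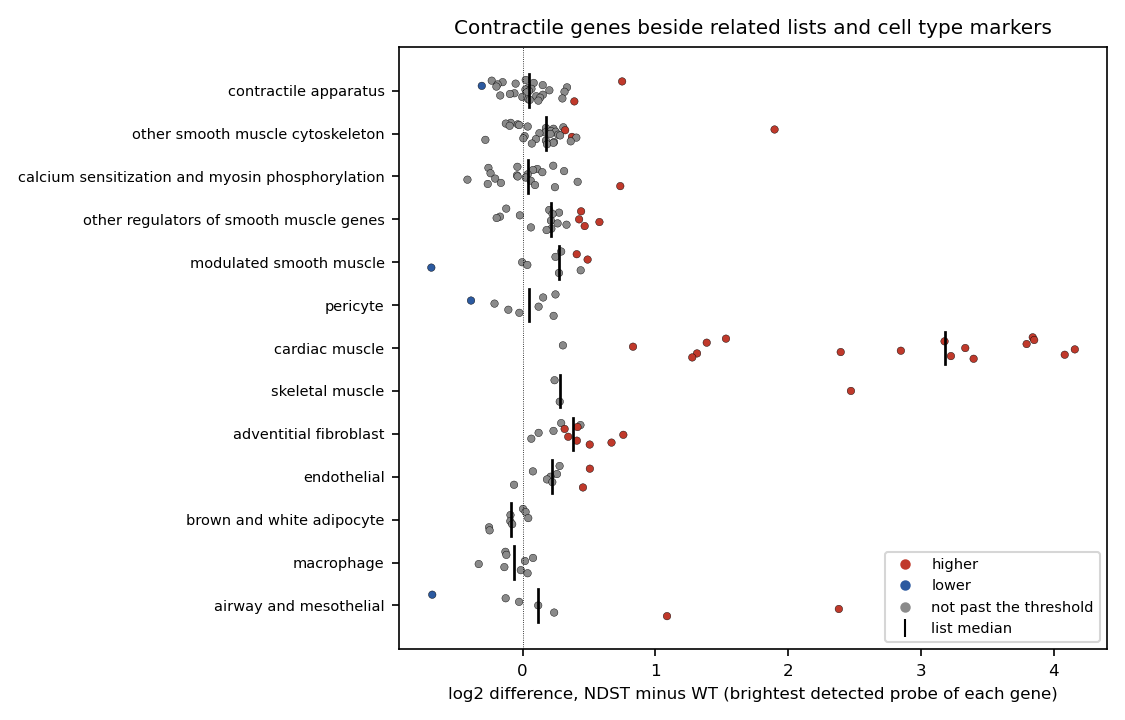
Difference in log2 intensity, NDST minus WT, of the brightest kept probe of each gene, by list, with the list's median as a bar. The contractile genes have a median of 0.04 and lie between -0.31 and 0.75, while cardiac muscle markers reach 4.16.

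Markers of other cell types moved with genotype beside these values. Of 17 cardiac muscle markers with a kept probe, 16 were higher and none lower, and their summed intensity was 22860 to 23430 on the NDST arrays against 2489 to 2573 on the WT arrays, 9.13-fold. The listed genes Myh7 and Nppb had no kept probe. Cardiac muscle also expresses Myocd, Srf, Gata6, Mef2c and Fhl2, so their values lie beside a rise of cardiac RNA whose part in them was not tested. Of 12 adventitial fibroblast markers 7 were higher and none lower, with a sum of 25720 to 25900 in NDST aortas against 19810 to 20280 in WT aortas. Fibroblasts express Tpm4, Cald1, Myh10, Tagln2 and Prrx1 too, and the part of that cell type was not tested. The summed intensity of the 30 contractile members was 94140 to 97530 on the NDST arrays and 92750 to 93820 on the WT arrays, 1.03-fold. The brightest probes of Acta2 and Myl6, at means of 15.15 and 13.61 on the log2 scale, weigh most in that sum.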

How the data were processed

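RNA of 3 NDST and 3 WT thoracic aortas was measured on Illumina bead arrays. The authors deposited 1 intensity and 1 detection p-value per probe and sample, read with GenomeStudio per the submitters' processing notes; the version, background step and any scaling are not given in the sources used here. Intensities were corrected and quantile normalized with neqc (offset 16) and tested as log2 values with limma 3.58.1 in R 4.3.3 (lmFit, eBayes, 6 arrays, no covariate, two-sided), after a check on simulated data. The members, their roles and all gene lists were chosen with earlier results of these data known. Every member was described. Of each pathway list the text names genes with a called probe, up to 4 of smallest p and the 2 brightest, each by its brightest kept probe unless stated, except some of the calcium sensitization list that are not reported here. Probe names follow the platform annotation, with 34885 probes of 1 gene, 18 of several and 10378 of none. The number of arrays limits the precision. A level not well above background on any array of a genotype gives a bound from the dimmest detected signal. Each such bound concerns the means of the arrays measured and takes no account of the spread between them. Same-numbered samples did not deviate together (correlations -0.01 to 0.02), so the main fit has no replicate term. Alternatives changed the normalization, background, offset, filter, variance model, source of values, replicate block and probe summary, and left out each array.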

Additional observations from a re-analysis of the deposited data

How the results depend on the processing

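Under 15 other settings, 849 pairs of a member probe and a setting were compared. Calls were lost in 52 and gained in 49, and no call turned in sign. In 2 more, both in the authors' processed values, a probe uncalled and positive as reported was called lower, the brightest of Acta2 (-0.165, adjusted p = 0.0448) and of Myl6 (-0.157, adjusted p = 0.0486). Of the 709 pairs uncalled in both, 56 changed sign.

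Beside 1336 probes called of all kept, the count was 1745 with median scaling, 2711 without normalization between arrays, 3048 without background correction, 2190 with an offset of 50, 1752 with detection on all 6 arrays, 722 with no filter, 3086 with an intensity trend and robust fit, 3493 in the authors' processed values, 364 with the replicate block and 404 to 532 without 1 array. The share called higher was 58.1% as reported, 82.9% with median scaling and 88.9% without normalization, where the median of all probes was 0.08 and 0.13, so member values are best read against that shift.

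Member probes called higher and lower, 5 and 1 as reported, were 6 and 0 with median scaling, 11 and 0 without normalization, 10 and 7 without background correction, 6 and 2 with an offset of 50 or with detection on all arrays, 1 and 0 with no filter, 10 and 7 with the trend, 6 and 10 in the authors' values, 1 and 0 with the replicate block, and 0 to 1 and 0 to 1 without 1 array. Member genes with a called probe, 6 as reported, numbered 5 with median scaling, 7 without normalization, 13 without background correction, 13 with the trend, 12 in the authors' values, 1 with no filter, 1 with the replicate block, 2 with the mean of each gene's probes (Lmod1 and Myh10) and 0 to 1 without 1 array. The median member difference was 0.08, 0.12 and -0.01 with median scaling, without normalization and in the authors' values, and 0.03 to 0.07 without 1 array. Probes called in the 3 related lists, 16 as reported, were 35 without normalization, 35 without background correction, 36 with the trend, 32 in the authors' values, 9 with no filter, 4 with the replicate block and 5 to 7 without 1 array.

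The authors' processed values have column medians of 134.2 to 134.4 for NDST and 135.8 to 135.9 for WT, and their scaling is unknown. The cause of these changes was not tested.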

Other observations

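Other marker lists gave mixed readings beside the contractile genes. Of 9 genes of modulated smooth muscle with a kept probe, 2 were higher and 1 lower, with a median difference of 0.27. The matrix genes Mgp and Fn1 were higher by 0.49 (limma adjusted p = 0.0146) and 0.41 (adjusted p = 0.0428). Timp1, a protease inhibitor, was lower on both probes, with -0.69 (adjusted p = 0.00752) on the brightest and -0.89 (adjusted p = 0.00179) on the other. The list's summed intensity was 20980 to 22780 in NDST aortas and 15560 to 15960 in WT aortas. Most of that sum was Mgp alone, at 14.21 in NDST aortas and 13.73 in WT aortas on the log2 scale.

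Of 8 pericyte genes none was higher and 1 lower, Cspg4, the NG2 proteoglycan, at -0.39 (adjusted p = 0.0467), with sums of 2871 to 2923 in NDST aortas and 2846 to 3006 in WT aortas. Of 9 endothelial genes 2 were higher, with sums of 9776 to 10090 in NDST aortas and 8262 to 8812 in WT aortas. None of 8 adipocyte genes was called by limma and 2 had an unadjusted p under 0.05, which 26% of all genes had by their brightest probe. The adipocyte sums were 78610 to 81320 in NDST aortas and 83480 to 86200 in WT aortas. None of 8 macrophage genes was called by limma and 1 had an unadjusted p under 0.05, with sums of 4544 to 4876 in NDST aortas and 4564 to 4814 in WT aortas. Of 7 airway and mesothelial genes 2 were higher and 1 lower, with sums of 1368 to 1389 in NDST aortas and 681.8 to 720.8 in WT aortas, 1.96-fold. Scgb1a1, a secretory protein of airway cells, averaged 9.76 in NDST aortas and 7.38 in WT aortas, 5.21-fold higher (adjusted p = 1.09e-05). The gene called lower in that list was Cyp2f2, at -0.68 (limma adjusted p = 0.0289), and 4 of the 7 were positive, so the list did not move together. Of the 3 skeletal muscle genes with a kept probe 1 was called, Ckm, at least 4.15-fold higher in NDST aortas. Tnnt3, Tnni2, Tnnc2, Myh1, Myh4, Actn3, Pvalb and Atp2a1 of that list had no kept probe. Which kind of muscle the Ckm RNA came from was not tested.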
